A study of Homo sapiens with 4 samples.

Results

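The mitochondrial ribosomal protein genes are nuclear genes for the proteins of the mitochondrial ribosome (mitoribosome). They were chosen by name, as the rows of type mRNA whose symbol is MRPL or MRPS followed by digits and an optional A, B or C. This gave 76 of the 40205 genes listed (19784 of them of type mRNA), 47 MRPL genes for the large subunit and 29 MRPS genes for the small subunit. Their RNA was measured by RNA sequencing in human lung cancer cells 24 h after transfection with a control siRNA (NC) or with an siRNA against circZFR (si-circZFR), a circular RNA made from exons of *ZFR*. Each group had 2 libraries, NC 1 and NC 2 against si-circZFR 1 and si-circZFR 2. All 4 came from a single cell line, without other alleles or agents, and nothing in the sources used here says whether the libraries of a group came from separate cultures, so that the p-values measure the spread between these libraries only. The sample labels name the line H1299, whereas the study text names A549, both human lung cancer lines.

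The mitoribosome sits on the inner mitochondrial membrane and translates the messages of mitochondrial DNA, which encode core subunits of the respiratory chain and of ATP synthase. Its RNA comes from mitochondrial DNA, but every one of its proteins is made in the cytosol and imported. Part of the proteins have bacterial relatives, and the others were added during the evolution of mitochondria. The small subunit holds the messenger RNA and the decoding site, and the large subunit joins the amino acids and releases the new chain through an exit tunnel that faces the membrane. The comparison asks how the genes of this machine stood after silencing of circZFR, in a study of oxidative phosphorylation.

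Values were deposited as RPKM, a read count divided by gene length and library total. The library totals recovered from them were 11040050 to 12816868 reads. Trimmed means of log ratios gave 1 scaling factor per library, and genes listed at 1 RPKM or more in 2 or more libraries were kept for the test. This left 13885 genes and every one of the 76 members. Groups were compared by limma after taking log2(scaled RPKM + 1), with p-values adjusted by Benjamini and Hochberg over all genes tested (FDR), and log2FC is the difference on this scale, si-circZFR against NC, which understates the change of low genes. A gene was called at FDR under 0.05 and |log2FC| above 1. The siRNA was designed against the back-splice junction of circZFR, which gene-level values do not measure, so its silencing was not checked here. By RT-PCR, the paper reports circZFR knocked down and no detectable change of *ZFR* expression in HCC827 and A549 cells. The host gene *ZFR* was at 26.0 (NC 1), 31.9 (NC 2), 5.25 (si-circZFR 1) and 4.63 scaled RPKM (si-circZFR 2). It had a log2FC of -2.33 (SE 0.17, FDR = 0.0388 by limma), a call that was lost under 6 of 16 other settings, without NC 2 or either si-circZFR library among them (FDR up to 0.235), and circular and linear *ZFR* RNA are counted together in these values, so their parts in this difference cannot be told apart. Of the marker genes, all 4 epithelial markers (*KRT8*, *KRT18*, *KRT19* and *CDH1*) were present, with a summed RPKM of 2050 to 2510 in NC and 3250 to 3430 in si-circZFR. *AKR1B10* and *AKR1C1*, enzymes abundant in A549 cells, were at 1270 to 1750 and 505 to 620 RPKM. The fibrinogen genes *FGA*, *FGB* and *FGG*, the other markers of the A549 list, were low, at 0.761 to 3.09 RPKM in NC and 2.12 to 6.89 in si-circZFR. Each was higher in si-circZFR without overlap between the groups, as were 28.1% of all genes tested. *VIM* was at 555 to 601 RPKM, and *CDKN2A*, fixed with *VIM* as a marker of H1299 cells, was listed at 0 in each library. The leukocyte markers *PTPRC* and *CD3E* and the fibroblast markers *COL1A2* and *DCN* were listed at 0 in each library, the endothelial markers summed to at most 0.0303 RPKM, and of the other markers of these lists *CD14* was at 5.21 to 8.90 and *COL1A1* at 0.553 to 2.09 RPKM. The part of these marker differences in the members' values was not tested.

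In the si-circZFR libraries, the mitoribosomal protein genes lay slightly lower as a group, and *MRPL45* lay far below the rest. No member was called by limma (1 was by limma-voom on recovered reads, *MRPL45*), against 8 called genes (0.0576% of all genes tested, 0.0288% lower and 0.0288% higher), and no member passed FDR under 0.05 without the fold limit either (0.0576% of all genes did). An unadjusted p under 0.05 was found in 16 members on the lower side and in 0 on the higher side, against 11.5% and 10.1% of all genes. The log2FC was below 0 in 71 of the 76 members and above 0 in 5, where 49.3% of all genes were below 0. The median log2FC of the members was -0.27 (quartiles -0.44 and -0.18), against 0.01 over all genes tested. The groups did not overlap in 41 members with si-circZFR on the lower side and in 1 member with si-circZFR on the higher side, where 28.1% and 28.1% of all genes were separated in these directions. The groups overlapped in the other 34 members. In bulk RNA, fewer cells of a type and less RNA per cell cannot be told apart.

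**Figure D1:**
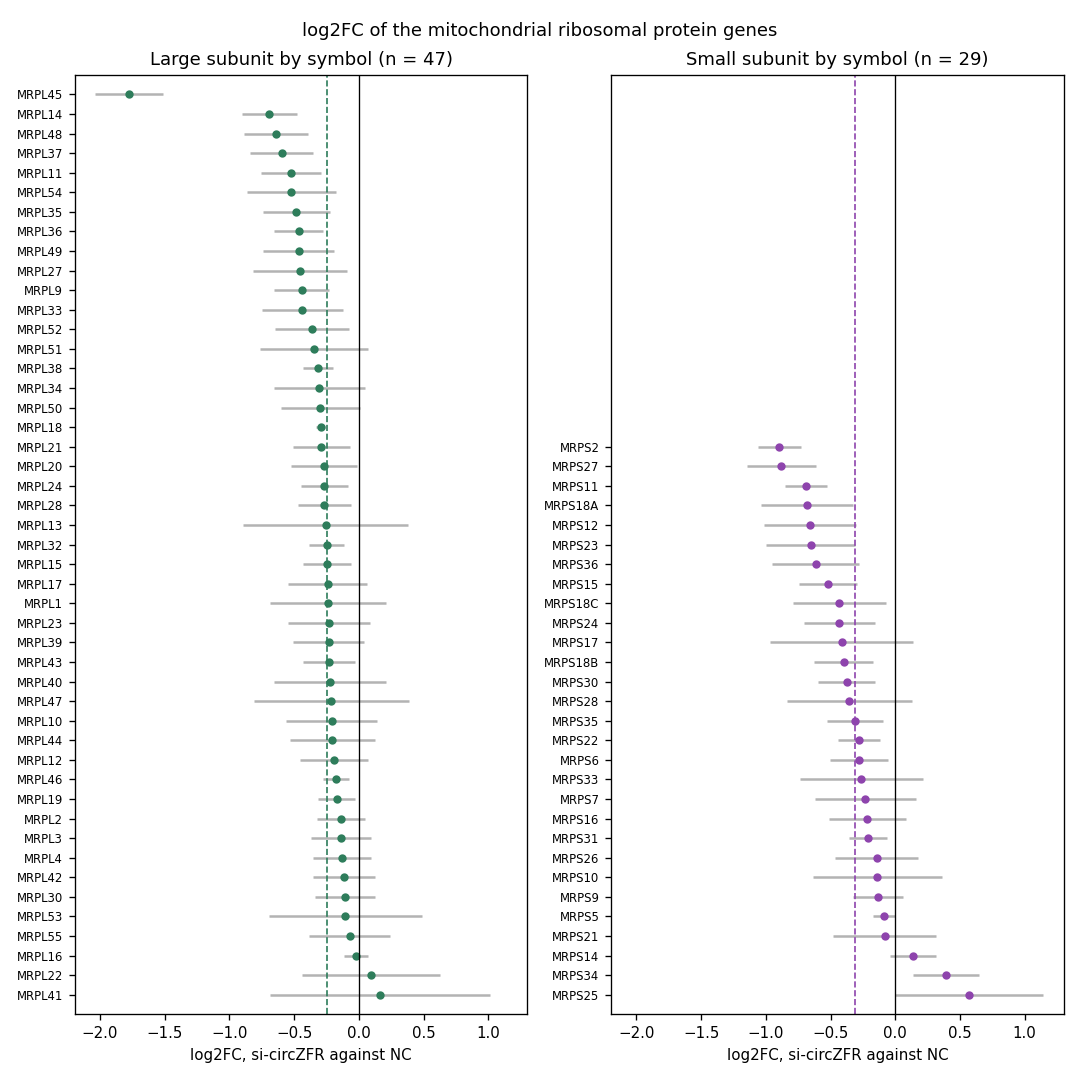
Each dot is the log2FC of a mitochondrial ribosomal protein gene, si-circZFR against NC, in the large subunit (47 genes, left) and the small subunit (29 genes, right), sorted by value. Grey lines run from the lowest to the highest of the 4 pairings of 1 si-circZFR with 1 NC library, dashed lines mark the median of each subunit, and *MRPL45* at -1.77 stands apart from every other member.

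The size of this difference rested on NC 2. The median of the scaled RPKM over the members was 22.1 (NC 1), 27.1 (NC 2), 18.3 (si-circZFR 1) and 20.3 (si-circZFR 2). NC 2 was the highest of the 4 libraries in 68 of the 76 members. Between the NC libraries themselves, NC 2 was above NC 1 in 70 members, with a median difference of 0.37 (log2), against 0.01 over all genes. Between the si-circZFR libraries the median difference was 0.04. Set against NC 1 alone, the members' medians were -0.15 for si-circZFR 1 and -0.10 for si-circZFR 2, and set against NC 2 alone they were -0.49 and -0.45. Refitted without NC 2, the median was -0.14 with 52 members below 0, and refitted without NC 1 it was -0.49 with 73 below 0. In the fit without NC 1, 937 genes and 5 members were called, whereas limma called 0 genes without NC 2, with 2546 genes and 8 members at an unadjusted p under 0.05. Both si-circZFR libraries thus lay on the lower side of either NC library at the median, and the distance to NC 2 was the larger.

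**Figure D2:**
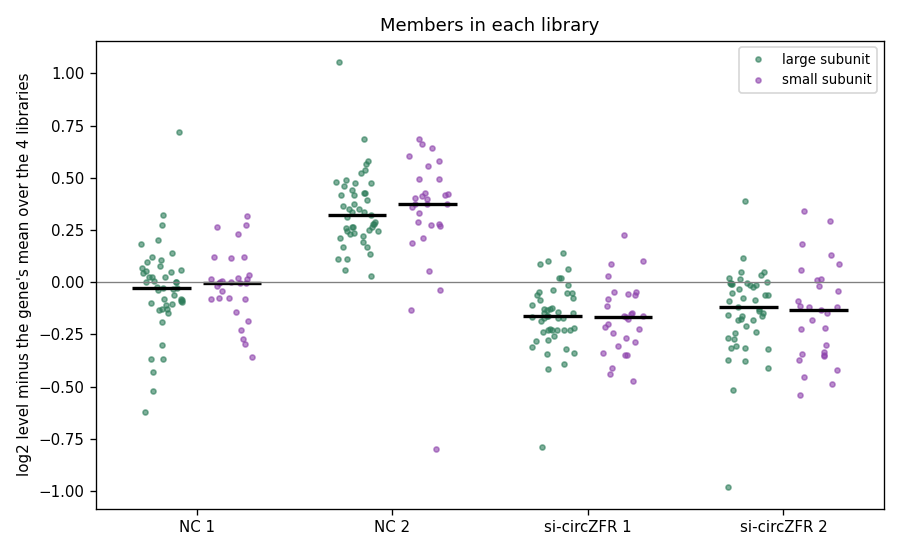
For each of the 76 members, the log2 level in a library minus the gene's mean over the 4 libraries (y axis), shown by library, with large subunit genes in green, small subunit genes in purple and black bars at the medians. NC 2 lies highest, with medians of 0.32 and 0.38, while NC 1 is at -0.03 and 0.00 and the si-circZFR libraries lie between -0.17 and -0.12.

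The subunits differed little from each other. Of the 47 large subunit genes, 45 were below 0, the median log2FC was -0.25, and 24 had both si-circZFR libraries below both NC libraries (51.1%). Of the 29 small subunit genes, 26 were below 0, the median was -0.31, and 17 were separated in this way (58.6%), with 1 separated upwards, where 28.1% of all genes were separated in each direction. An unadjusted p under 0.05 on the lower side was found in 8 genes of each, against 11.5% of all genes. A subunit's median varied between libraries of a group (SD 0.18 for the large and 0.19 for the small subunit). Both subunits were read in the same libraries and moved together between them, so this spread does not measure that of the gap. No test of the difference was made. Without NC 2 the medians were -0.13 and -0.14. Symbol and place do not fully match. *MRPS18A* and *MRPS30* belong to the large subunit, and *MRPS36* is now known as a part of the 2-oxoglutarate dehydrogenase complex of the citric acid cycle. Counted by place, the medians were -0.26 for 49 large and -0.28 for 26 small subunit genes. The 46 members on a fixed list of those with a bacterial relative had a median of -0.25, and the 30 off this list had -0.31. Of the *MRPS18* genes only *MRPS18C* was on the list, so *MRPS18A* and *MRPS18B*, like *MRPS36*, were counted among the 30.

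*MRPL45* encodes a protein of the large subunit at the mouth of the exit tunnel, where it helps to hold the mitoribosome to the inner membrane. It lies on the plus strand of chromosome 17 from 38297023 to 38323217 (GRCh38) and has 8 exons in the transcript used. Its scaled RPKM was 27.8 (NC 1), 35.3 (NC 2), 9.11 (si-circZFR 1) and 7.86 (si-circZFR 2), from 556, 698, 178 and 164 reads. Both si-circZFR libraries were thus well under the lower NC library. The mean was 31.6 ± 5.34 in NC and 8.48 ± 0.885 in si-circZFR (SD, n = 2 each), 26.9% of the NC level. The log2FC was -1.77 (SE 0.18), and it ran from -2.04 to -1.51 over the 4 comparisons of single libraries. With an unadjusted p of 8.8e-05 and an FDR of 0.0638 by limma, it missed the threshold. Its p was the 18th smallest of all 13885 genes, its log2FC was the 32nd lowest of all genes and the 10th lowest of 11288 mRNA genes, and 2.61% of all genes were below -1. The next member, *MRPS2*, was 0.88 (log2) above it, and no other member was below -1. Under 8 of the 16 other settings tried, *MRPL45* was called, with log2FC from -1.95 to -1.59 and FDR from 0.00343 to 0.372 over all 16. Without NC 2, the library with the highest member levels, it was at -1.61 (FDR = 0.162 by limma).

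Reads of near-identical copies could enter the value of *MRPL45*, since the treatment of multiply mapped reads is not given in the sources used here. Its pseudogene *MRPL45P2* had 62 and 30 reads in the NC libraries and 29 and 13 in the others. How reads were divided between the gene and its copy was not tested. Of the 96 pseudogene rows of members, 61 were listed at 0 in each library and 5 reached 1 RPKM in any.

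The 3′UTR of *MRPL45* was searched for CTGACTC, a 7-mer that an earlier search of these same libraries had found in the 3′UTRs of lower genes, so that its presence is no independent support. It was searched on the transcript strand of the GENCODE canonical transcripts. The 3′UTRs of 5 members hold it (6.58% of 76), against 11.3% of the 10445 genes tested that have a 3′UTR. In 3 of them, shown here because they include the lowest member, it is followed by A (3.95% of members and 3.66% of genes hold this 8-mer, CTGACTCA, in which the 7-mer lies). Each window below has the site in capitals and reads along the transcript.
MRPL45, chr17:38323138-38323165 (GRCh38), plus strand, 3′UTR: ttttcatataCTGACTCActgatgaatc
MRPS18C, chr4:83461248-83461275 (GRCh38), plus strand, 3′UTR: gatgccaataCTGACTCAaaccaacctt
MRPS33, chr7:141006047-141006074 (GRCh38), minus strand, 3′UTR: ttcttgcttaCTGACTCAcccagcccta

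The site of *MRPL45* starts at base 553 of a 3′UTR of 616 bases. The log2FC of the other holders of the 8-mer were -0.43 for *MRPS18C*, close to the lower quartile of the members, and -0.26 for *MRPS33*, near their median, and *MRPS33* has its site at base 756 of the transcript, past the 746 bases of the length used in the files. The 7-mer alone lies in *MRPL42* (log2FC -0.11) and in *MRPL49* (log2FC -0.46, at 2 places). In *MRPL42* the site is at base 6546 of the transcript, also past the length used in the files, 3244 bases. The holders thus ran from -1.77 to -0.11, with a median of -0.43 and all 5 below 0, where 71 of the 76 members were below 0. TGACTC was in 13 members (17.1%, against 29.1% of the genes tested that have a 3′UTR). These 13 were also all below 0, with a median of -0.31. The 63 members without these 6 bases, which lie inside the 7-mer, had a median log2FC of -0.25. Over all genes tested that have a 3′UTR, the medians were -0.003 for the 3038 with TGACTC and 0.039 for the 7407 without it. These differences were not tested.

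After *MRPL45*, the 7 next lowest members were MRPS genes except *MRPL14*. *MRPS2*, a small subunit protein with a bacterial relative, was at 38.0 and 45.6 scaled RPKM in NC 1 and NC 2 and at 22.5 and 21.3 in si-circZFR 1 and 2. *MRPS27*, a small subunit protein with RNA-binding repeats and no bacterial relative, was at 22.6 and 28.7 against 14.4 and 12.4. Both stood at about the same share of the NC mean, 52.4% for *MRPS2* and 52.3% for *MRPS27*, with no overlap. Their log2FC were -0.90 (SE 0.17, FDR = 0.0849 by limma) and -0.88 (SE 0.19, FDR = 0.0962 by limma). Neither was called except without NC 1, where the lone NC library is assumed to vary like the other libraries.

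*MRPL14*, a large subunit protein at the face between the subunits, was at 49.8 and 61.0 scaled RPKM in NC and at 35.4 and 32.2 in si-circZFR. *MRPS11*, of the small subunit platform, was at 22.5 and 25.3 against 15.3 and 13.6. Their log2FC were both -0.69 (FDR = 0.125 for *MRPL14* and 0.110 for *MRPS11* by limma), and the libraries of a group lay close together. The next 3 depended on NC 2 far more. *MRPS12*, which lies at the decoding site, had 49.6 in NC 1 but 79.2 in NC 2, against 40.1 and 38.6 in si-circZFR. *MRPS18A* had 20.9 and 34.4 against 16.3 and 16.5, and *MRPS23* had 31.3 and 49.2 against 24.2 and 25.1. For these 3 genes the log2FC were -0.66, -0.68 and -0.65 (FDR from 0.20 to 0.21 by limma, with *MRPS18A* called without NC 1), and the NC libraries differed from each other by as much, 0.67, 0.69 and 0.64 (log2).

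Of the 5 members above 0, only *MRPS34* had both si-circZFR libraries above both NC libraries. *MRPS34*, a small subunit protein without a bacterial relative, was at 33.9 and 42.5 scaled RPKM in NC and at 46.8 and 53.7 in si-circZFR. Its log2FC was 0.39 (SE 0.19, FDR = 0.284 by limma), and it stayed above 0 under all 16 other settings, from 0.23 to 0.64. *MRPS25*, a small subunit protein and the longest of the members by the length recovered from RPKM (8131 bases, but 4572 in the GENCODE transcript), had the highest log2FC, 0.57 (SE 0.34, FDR = 0.371 by limma). This value came from NC 2, where it was at 3.41, while NC 1 was at 8.02 and si-circZFR 1 and 2 at 7.99 and 8.74. Without NC 2 its log2FC was 0.05, and without NC 1 it was 1.08 and was called. *MRPS14*, the member with the lowest level, was at 5.37 and 4.82 against 5.19 and 6.24, with overlapping groups and a log2FC of 0.14.

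**Figure D3:**
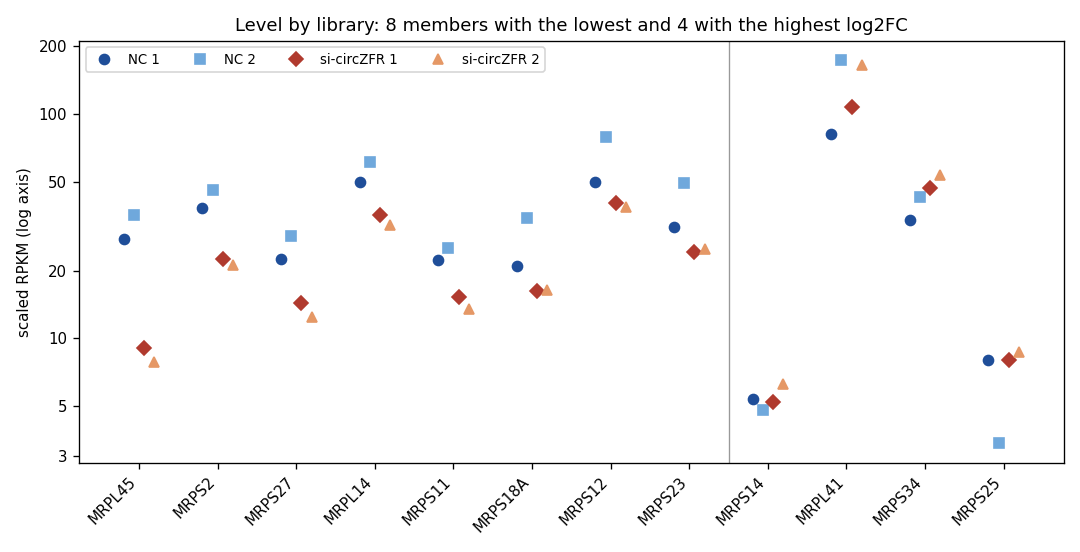
Scaled RPKM (log axis) of the 8 members with the lowest log2FC (left of the line) and the 4 with the highest (right), with a symbol for each of the 4 libraries. The si-circZFR libraries lie below the NC libraries in all 8 on the left, with the widest gap for *MRPL45*, and above them on the right only for *MRPS34*.

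Levels spanned 5.41 to 132.5 scaled RPKM (mean of the 4 libraries), with a median of 21.6 against 7.12 for all genes tested. The 5 highest were *MRPL41*, *MRPL12*, *MRPS15*, *MRPL24* and *MRPL38*. *MRPL41*, a large subunit protein without a bacterial relative, was at 81.7 and 174.4 in NC and at 107.9 and 166.1 in si-circZFR. Its replicates differed within both groups and its log2FC was 0.16 (SE 0.41), so that no difference could be seen at this spread. *MRPL12*, the stalk protein that meets the translation factors, was at 67.4 and 87.2 against 63.4 and 70.9, again with overlap and a log2FC of -0.19. *MRPS15* was at 68.6 and 83.5 against 55.6 and 49.3, with a log2FC of -0.52 (FDR = 0.191 by limma) and no overlap. *MRPL24*, a protein near the exit tunnel, and *MRPL38*, of the central protuberance, were also without overlap, at -0.27 and -0.31. The order among *MRPL12*, *MRPS15*, *MRPL24* and *MRPL38* lay inside the spread between libraries. For *MRPL38* the recovered length was taken as a multiple of the smallest whole solution, as for 5 other members (*MRPL3*, *MRPL17*, *MRPL50*, *MRPS5* and *MRPS17*), so their read counts are uncertain, though their RPKM are not.

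The proteins that lie near MRPL45 in the mitoribosome had other values. Among the 8 members of the exit tunnel and membrane side, 7 were below 0 and the median log2FC was -0.23, with the 7 others between -0.27 and 0.09. The 5 stalk genes (*MRPL10*, *MRPL11*, *MRPL12*, *MRPL53* and *MRPL54*) were all below 0, with a median of -0.21. The 7 genes of the central protuberance, which meets the small subunit, were all below 0, with a median of -0.30. Of these 7, 5 were separated downwards (71.4%), as were 2 of the 8 of the exit tunnel and membrane side (25%). Among the 5 stalk genes it was 2 (40%), where 53.9% of all members and 28.1% of all genes were separated downwards. *MRPS30* was at -0.37 and *MRPS36* at -0.61 (FDR = 0.178 by limma), the latter from 100, 133, 78 and 65 reads.

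The other genes of mitochondrial translation had list medians from -0.11 to -0.02, and their difference from the members was not tested. For mitoribosomal proteins with other symbols, 4 of 7 were below 0 and the median log2FC was -0.02. *ICT1*, a peptidyl-tRNA hydrolase built into the large subunit, was the only 1 with an unadjusted p under 0.05 and was higher, with 23.6 and 29.8 scaled RPKM in NC and 35.1 and 38.1 in si-circZFR (log2FC 0.45, FDR = 0.229 by limma). *DAP3*, the GTP-binding protein of the small subunit, was at 50.8 and 67.5 against 46.9 and 47.7 (log2FC -0.30), and *CHCHD1* was at -0.32. Of 16 mitochondrial translation factors, 8 were below 0 and 8 above, the median was -0.03, and 4 had an unadjusted p under 0.05, all lower, where 11.5% of all genes had such a p on the lower side. The smallest p belonged to *MRRF*, the factor that recycles the ribosome after termination, which was at 26.3 and 28.5 against 16.3 and 14.5 (log2FC -0.79, SE 0.16, FDR = 0.0916 by limma). *SLIRP*, which stabilizes mitochondrial messages, was at -0.72 (FDR = 0.179 by limma), and *MTIF3*, an initiation factor, at -0.48 (FDR = 0.170 by limma). After the length correction, *MRRF* was at -0.78, *SLIRP* at -0.36 and *MTIF3* at -0.23. Of 26 assembly factors, 18 were below 0, the median was -0.11, and 6 had an unadjusted p under 0.05, all lower, against the same 11.5%. *NOA1*, a GTPase of mitoribosome assembly, *FTSJ2*, a methyltransferase of the large ribosomal RNA, and *MPV17L2* were at -0.50, -0.46 and -0.50. No gene of these 3 lists was called. With the length trend removed, the proteins with other symbols were at 0.097 and the members at -0.13, where all genes were at -0.02. With library size as the only scaling the 3 medians were above 0 but under the median of all genes, which was then 0.15, and without NC 2 or without si-circZFR 1 the medians of the proteins with other symbols and of the translation factors were above 0.

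Transcript length moved with the log2FC across the transcriptome. Over all 13885 genes, Spearman's rho between log2FC and the length recovered from the RPKM values was 0.283, and between the NC libraries themselves (NC 2 minus NC 1) it was -0.327, a description across genes that share libraries. The members are short, with a median length of 1366 bases against 2802 for all genes and 3308 for mRNA genes, and a median GC content of 48.0% against 48.7%. Among the 76 members, rho was 0.228 (0.246 without *MRPL45*), from 0.02 to 0.33 over the 4 comparisons of single libraries, and only 0.06 with the length of the GENCODE transcript. For NC 2 minus NC 1 it was -0.220 over the members. The 26 shortest members (518 to 1121 bases) had a median log2FC of -0.30, the 25 in the middle -0.27, and the 25 longest (1748 to 8131 bases) -0.22.

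The medians of the members were near those of mRNA genes of like length among short transcripts and under them among longer ones, a comparison that was not tested. Up to 1000 bases, 18 members had a median log2FC of -0.33 and 550 mRNA genes had -0.28. From 1000 to 2000 bases, 40 members had -0.26 and 2021 mRNA genes -0.13. From 2000 to 4000 bases, 15 members had -0.23 while 4346 mRNA genes had 0.01. Over these 3 ranges, the median difference between the NC libraries fell with length in mRNA genes, whereas that of the members changed little. NC 2 minus NC 1 had a median of 0.41, 0.36 and 0.37 for members in these 3 ranges and of 0.37, 0.20 and 0.04 for mRNA genes. Above 4000 bases it was -0.11 for 3 members and -0.14 for mRNA genes, and rho with length over all members was -0.22. In the range of 2000 to 4000 bases, the members' median thus lay apart from that of mRNA genes both between the groups and between the control libraries. By the recovered length, only 3 members were longer than 4000 bases, *MRPL30* (log2FC -0.11), *MRPL19* (-0.17) and *MRPS25* (0.57), and *MRPS5*, the next in length, was at -0.09. Of the 4 shortest, *MRPL33*, *MRPL36* and *MRPL54* were at -0.44, -0.47 and -0.52, whereas *MRPL41* was at 0.16.

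**Figure D4:**
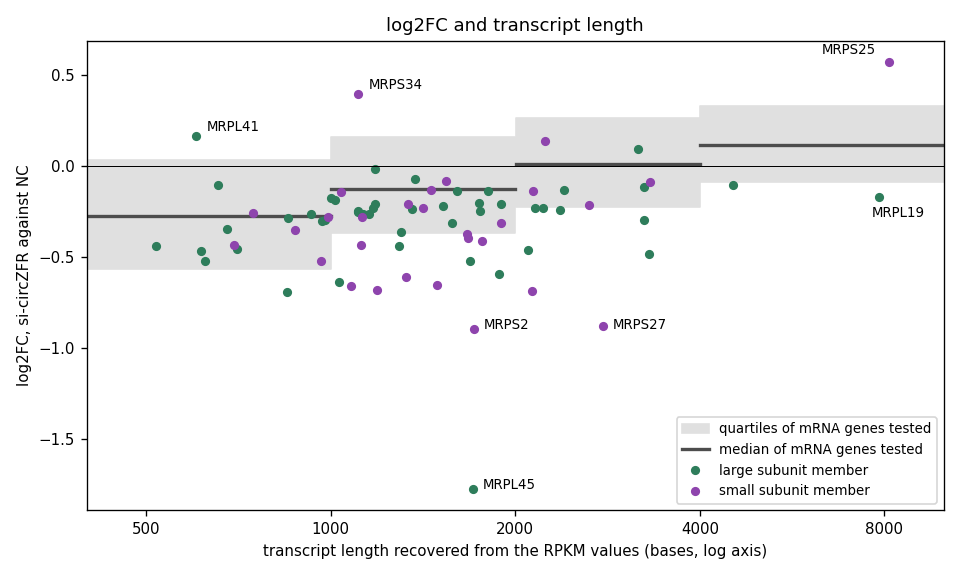
The log2FC of each member (y axis) by the transcript length recovered from the RPKM values (x axis, log scale), with dark bars at the medians and grey bands between the quartiles of all mRNA genes tested in 4 length ranges. The medians of mRNA genes go from -0.28 up to 1000 bases to 0.11 above 4000 bases, and *MRPL45* lies far under the band at its length of 1705 bases.

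When the length trend was removed in each library, the median of the members was -0.13 (-0.02 over all genes), with 58 below 0. Separated downwards were then 25 of the 76 members (32.9%) and 30% of all genes (4172 of 13885). With length and GC content removed together, the median was -0.07 (-0.005 over all genes) with 44 below 0, and 23 members (30.3%) and 28.7% of all genes were separated downwards. The corrected log2FC of the members ran against length (rho -0.427), with medians of -0.01, -0.08 and -0.24 in the shortest, middle and longest members. *MRPL45* was hardly touched by the correction. Its log2FC was -1.70 after the length correction (FDR = 0.0437 by limma) and -1.59 after correction for length and GC content (FDR = 0.0433 by limma), and it was called in both. *MRPS2* and *MRPS27* were at -0.82 and -0.93 after the length correction (FDR = 0.0741 and 0.0840 by limma). *MRPS11* stayed at -0.69 (FDR = 0.0958 by limma), whereas *MRPL14* moved from -0.69 to -0.38 (FDR = 0.201 by limma). *MRPS12*, *MRPS18A* and *MRPS23* were then at -0.40, -0.46 and -0.52.

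The promoters of the members were searched for 3 motifs, which the choice by symbol did not use. RefSeq promoters (GRCh38.p14, 250 bases before to 50 after a gene's start) were at hand for 67 of the 76 members and for 27305 genes in all, 8580 of them mRNA genes tested. A gene was counted when any of its promoters held the letters on either strand. The YY1 motif AAGATGGC was in 21 of the 67 (31.3%), against 3.52% of all genes and 601 of the 8580 mRNA genes tested. The ETS motif CCGGAAG was in 29 (43.3%), against 12.2% and 23.3%, and the NRF1 motif GCATGCGC in 6 (8.96%), against 3.68% and 6.69%. YY1, ETS factors such as GABPA, and NRF1 are known regulators of nuclear genes for mitochondrial proteins. The YY1 letters hold ATG, so a match after the gene's start can overlap a start codon, and the ETS letters end as the YY1 letters begin (AAG), as the YY1 letters end and the NRF1 letters begin (GC), so that matches of these motifs can overlap. No test of the shares was made. Windows of 28 bases with the motif in capitals are shown for the holders among the 8 lowest members, on the strand of the gene.
MRPL45, chr17:38297171-38297198 (GRCh38.p14), plus strand: ttgcgggaacAAGATGGCagcccccata
MRPS27, chr5:72320207-72320234 (GRCh38.p14), minus strand: ggtacgctccAAGATGGCtgcctccata
MRPS18A, chr6:43687765-43687792 (GRCh38.p14), minus strand: taggtttttgAAGATGGCggccctcaag
MRPS12, chr19:38930722-38930749 (GRCh38.p14), plus strand, motif on the opposite strand: catggacgcaGCCATCTTggaccgggaa

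In *MRPL45*, *MRPS27* and *MRPS18A* the motif starts 13, 16 and 9 bases after the gene's start in RefSeq, which for *MRPL45* is not the GENCODE start given with its position. The 21 members with the YY1 letters had a median log2FC of -0.35 and the 46 without them -0.24. For the ETS letters the medians were -0.27 with and -0.27 without, and for the NRF1 letters -0.31 and -0.27. A match of letters is a description and says nothing of binding in these cells.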

How the data were processed

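RNA sequencing (Ion Proton) of 2 NC and 2 si-circZFR libraries was analysed, with groups and replicate numbers from the sample titles. The authors deposited 1 RPKM value per gene and library. The labels list the build GRCh37, the paper's methods hg38, and the aligner and annotation are not given in the sources used here. Gene positions, transcripts and sequences are therefore from the GRCh38 reference (GENCODE and RefSeq), matched by symbol for all 76 members. The members and lists were chosen with earlier results of these data known. The authors used SVA and edgeR, which needs counts. Because the deposited values are RPKM, limma took its place, fitted on the whole table with a trended prior variance (trimmed means: 30% of ratios, 5% of levels).

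Library totals, gene lengths and reads were recovered by searching the length at which a gene's RPKM values are whole reads (within 0.02), which worked for 24282 of 24289 genes above 0 (99.97%). Listed genes held 97.9% to 98.3% of the reads. Reads served for depth and for limma-voom, which called 283 genes and 1 member. The precision of each mean rests on 1 difference between replicates.

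The rule for named genes took *MRPL45*, the 8 lowest and 4 highest members by log2FC, the 5 highest by level, the 4 shortest and 4 longest, *MRPS18A*, *MRPS30* and *MRPS36*, the 3 smallest p of each other list, and *ZFR*. Other genes named were chosen after their values were seen, as members of a role group or holders of a motif. The result for 1 cell line marker is not reported here. Other settings covered the scaling, filter, pseudocount, prior variance, length and GC content (splines with 5 degrees of freedom), the replicate number as a block, the genes kept, limma-voom and each library left out. Software was matplotlib 3.10.9, scipy 1.17.1, pandas 2.3.3 and numpy 2.4.6 in Python 3.11.15, and limma 3.58.1 in R 4.3.3.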

Additional observations from a re-analysis of the deposited data

How the results depend on the processing

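With 2 libraries in each group, a single library decides the size of the members' common difference. Leaving out each library in turn gave 0 to 937 genes called and 0 to 5 members called (5 without NC 1: *MRPL45*, *MRPS2*, *MRPS18A* and *MRPS27* lower and *MRPS25* higher). The members' median log2FC then ran from -0.485 to -0.135 and the log2FC of *MRPL45* from -1.95 to -1.61. Members with every si-circZFR library still in the fit below every NC library still in it numbered 41 to 72 (53.9% to 94.7%). Fewer libraries separate more easily, and 35.8% to 42.8% of all genes were separated in this way, against 28.1% with every library kept. The medians of the other lists ran from -0.158 to 0.119 (mitoribosomal proteins with other symbols), -0.153 to 0.0247 (translation factors) and -0.222 to -0.0622 (assembly factors). The cause of these moves was not tested.

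All genes called numbered 179 with a CPM filter, 2 with a pseudocount of 0.1, 15 with length corrected, 14 with length and GC content corrected, 1 without the variance trend, 283 with limma-voom and 195 with pseudogenes, non-coding, ribosomal protein and mitochondrial DNA genes left out. *MRPL45* was the 1 member called with the CPM filter (-1.79), length corrected (-1.70), length and GC content corrected (-1.59), limma-voom (-1.89) and those genes left out (-1.81).

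With library sizes as the only scaling, the median of all genes was 0.15. The members' median was then -0.095, or -0.245 relative to all genes, 22 members were separated downwards (28.9%, with 18.2% of all genes), and the other lists were at 0.14, 0.122 and 0.0515, each under the median of all genes. With length corrected, 25 members were separated downwards (32.9%, with 30% of all genes), rho was -0.427 and mitoribosomal proteins with other symbols were at 0.097. With GC content too, the medians were -0.0655 (members), -0.0478 (large), -0.0779 (small), 0.123 (other symbols) and -0.0424 (assembly factors), 23 members were separated downwards (30.3%, with 28.7% of all genes) and rho was -0.449. With GENCODE lengths, an alternative added after the data were seen, rho was 0.0608.

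The replicate number as a block gave 63 genes called, with *MRPL45* the 1 member (-1.77, FDR = 0.0435 by limma), and with length corrected as well 297 and *MRPL45* (-1.70), with 25 members separated downwards, rho -0.427 and other symbols at 0.097. Same-numbered libraries deviated together only weakly (r = 0.0694), so the numbers were not taken as pairs.

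Named genes whose sign turned, none of them called, were *MRPS5* (0.0825) and *MRPL30* (0.054) by library size alone, both under the median of all genes there, *MRPL12* (0.0814) and *MRPL24* (0.0277) with length corrected, with and without the replicate block, and *MRPL24* (0.107), *MRPL33* (0.014), *MRPL36* (0.0103) and *CHCHD1* (0.133) with length and GC content corrected. Over libraries left out, *MRPL41* ran from -0.383 to 0.701, *MRPL30* from -0.269 to 0.048 and *MRPS5* from -0.149 to 0.000347. The call of *ZFR* was lost under 6 of 16 settings, with log2FC from -2.54 to -2.17.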
